A study of Mus musculus with 6 samples.

Results

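Metalloproteinases of the matrix metalloproteinase (MMP), ADAM and ADAMTS families, together with the tissue inhibitors of metalloproteinases (TIMP), were followed in livers of Mst1-null mice, comparing a group without Cre with a group in which albumin-Cre deletes Mst2. Members were all gene symbols of the form Mmp, Adam or Adamts with a number, or Timp1 to Timp4, which gave 78 of the 22068 symbols: 23 MMP, 4 TIMP, 32 ADAM and 19 ADAMTS genes. Their expression was read in polyadenylated RNA in 6 liver libraries from C57BL/6 mice aged 6 weeks. The 3 control libraries had the genotype Mst1-/-; Mst2fl/fl; alb-Cre-/-, and the 3 double knockout (dKO) libraries had Mst1-/-; Mst2fl/fl; alb-Cre+/+. Both groups therefore lacked Mst1 and carried floxed Mst2, and no library of wild-type liver was analysed here. The albumin promoter drives Cre in hepatocytes and, through their shared precursor, in bile duct cells, and the share of cells that had recombined was not measured. Whether replicates 1 to 3 of a group were different animals is not in the labels, and the p-values below cover only the spread among the libraries, part of which may be technical.

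MMPs and ADAMTS proteinases are secreted or membrane-anchored zinc enzymes that cut collagens, proteoglycans and other matrix proteins, and they are made as inactive precursors. TIMPs bind the active site of these enzymes and block it, while ADAMs sit in the cell membrane and release the outer parts of growth factors, receptors and adhesion proteins. In liver, stellate cells, macrophages, endothelial cells and bile duct cells are known sources of many of these enzymes, and the balance of MMP and TIMP activity is studied in fibrosis and regeneration.

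Values are RPKM, reads scaled to transcript length and to all reads of the library, so levels of different genes can be compared per length. Libraries summed to between 324034 and 368246 RPKM. The spacing of their low values gave the depth by estimate, at which 1 RPKM of a transcript of 1 kb corresponds to 16.9 to 24.5 reads. The Mst2 gene Stk3 measured 6.00, 5.42 and 5.20 RPKM in control and 5.13, 4.25 and 5.32 RPKM in dKO libraries (limma adjusted p = 0.424), and the Mst1 gene Stk4 4.66 to 5.50 and 4.93 to 5.84 RPKM. One value per gene does not resolve the deleted exons, so these levels do not check the genotypes. Hepatocyte markers summed to 46667 to 60520 RPKM in the control and 39259 to 46109 RPKM in dKO libraries. Most of this was Alb, whose groups overlapped (limma adjusted p = 0.527). Of the 8, 4 (Ttr, Ass1, Tat and Cyp2e1) fell, against 2.17% of all tested genes called lower. After median-ratio scaling or without dKO replicate 3, 3 fell, and the call of Ttr was lost (limma adjusted p = 0.0583 and 0.0531). dKO replicate 3 stood apart in the marker lists. Its 12 stellate and fibroblast markers summed to 352 RPKM, against 184 to 198 in control libraries and 200 in each of the other dKO libraries. Of these sums Dcn alone held 112 to 142 RPKM in control and 106 to 151 RPKM in dKO libraries. All dKO libraries lay above all controls at 7 of the 12 markers, where 38.3% of all tested genes did. Of the 12, 1 (Cygb) was called higher in dKO. The 8 cholangiocyte markers summed to 36.9 to 87.0 RPKM in control and 359 to 1011 RPKM in dKO libraries. All 6 tested ones were called higher, against 17.8% of all tested genes, but Epcam was tested only through its dKO values. All 5 with a control mean of at least 1 RPKM were called, against 16.3% of all such genes. After median-ratio scaling 5 of the 6 were called, against 7.86% of all genes, and Krt19 was not. Spp1 supplied most of the cholangiocyte sums, and without it the other 7 summed to 16.0 to 22.2 and 53.6 to 102 RPKM. The 9 macrophage markers summed to 123 to 239 and 203 to 305 RPKM, with 2 called higher (Vsig4 and Lyz2; 1 to 6 with 1 library left out). Marco, of the same list, was at 5.51 to 20.4 RPKM in control and 2.74 to 4.79 RPKM in dKO libraries (limma adjusted p = 0.0531, and 0.037 after median-ratio scaling). The 8 endothelial markers (88.3 to 98.5 and 97.4 to 116 RPKM) and 7 neutrophil and lymphocyte markers (52.0 to 107 and 36.3 to 74.7 RPKM) had 0 called higher, and no marker was at 0 in all libraries. The part of these cell types in the member values below was not tested, and in bulk tissue fewer cells of a type and less RNA per cell cannot be told apart.

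Most members were scarce in these livers. Of the 78, 22 had a mean of at least 1 RPKM over the 6 libraries and were tested, 6 others passed 1 RPKM in some library, 34 were above 0 but not above 1 RPKM anywhere, and 16 were at 0 throughout. Above 1 RPKM stood 18, 17 and 17 members in control replicates 1, 2 and 3 and 24, 21 and 28 members in dKO replicates 1, 2 and 3. Of all symbols, 10322 to 10634 were above 1 RPKM in the controls, and 11031 to 11651 in the dKO libraries. The classical collagenases and stromelysins were near silent: Mmp8, Mmp13 and Mmp3 reached at most 0.323 RPKM in any library, and Mmp1a, Mmp1b and Mmp10 were at 0. Of the 10 MMP genes that stand side by side on chromosome 9 without another protein-coding gene between them in RefSeq, none passed 0.558 RPKM, the level of the macrophage elastase gene Mmp12 in dKO replicate 1.

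Of the 22 tested members, 8 rose and 0 fell in dKO liver (limma on log2(RPKM + 1), adjusted p under 0.05 over all 11062 tested genes). That is 36.4% of the tested members, against 17.8% of all tested genes called higher and 2.17% called lower. Called were 3 MMP genes (Mmp15, Mmp14, Mmp11), 2 inhibitors (Timp2, Timp1) and 3 ADAMTS genes (Adamts5, Adamts10, Adamts7), and 0 of 7 tested ADAM genes. The groups did not overlap at 11 tested members, all higher in dKO, where 38.3% of tested genes had all dKO libraries above all controls and 6.73% below. The median log2 change, dKO minus control, was 0.46 over the tested members and 0.23 over all tested genes. Adam15, Adam19, Adamts5, Mmp11 and Timp1 had control means below 1 RPKM and entered the test only through their dKO values, so the calls of the last 3 are no support for a direction. Among the 17 members with a control mean of at least 1 RPKM, 5 were called higher (29.4%), against 16.3% of all such genes.

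The size of this count rested on scaling and on single libraries. RPKM is relative to all reads, and 89.1% of all calls were increases, which became 58.6% when libraries were aligned by the median ratio of their genes. Over all tested genes the median log2 change then went from 0.23 to -0.01, and 4 of 21 tested members (Mmp15, Timp2, Adamts5 and Mmp11) were then called higher, or 19.0%, against 7.86% of all genes higher and 5.57% lower. Among members whose scaled control mean reached 1 RPKM, 2 of 18 (Mmp15 and Timp2) were called higher, or 11.1%, against 6.64% of all such genes. With that scaling 9 of the 22 members did not overlap between groups, all higher, against 19.9% of genes higher and 19.7% lower. Without control replicate 1, 2 of 22 tested members were called higher (9.09%, against 6.84% of all genes). Without control replicate 2 the share of members, 4 of 22 or 18.2%, was that of all genes (17.9%), and without control replicate 3 it was 3 of 22 (13.6%, against 8.59%). Leaving out dKO replicates 1, 2 and 3 in turn gave 5 of 21, 9 of 22 and 4 of 19 members (23.8%, 40.9% and 21.1%), against 10.5%, 14.1% and 9.1% of all genes. Sample weights gave 15 of 22 members (68.2%) against 37.4% of all genes, and a replicate block 7 of 22 (31.8%) against 13.7%. dKO replicate 3 held the highest of the 6 values at 20 of the 22 tested members, and at 52.4% of all tested genes. Mmp15 (control mean above 1 RPKM) was called under each of the 14 alternatives run. So was Adamts5, which entered the filtered fits only through its dKO values and was also called in the fit without a filter (limma adjusted p = 0.0245).

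**Figure D1:**
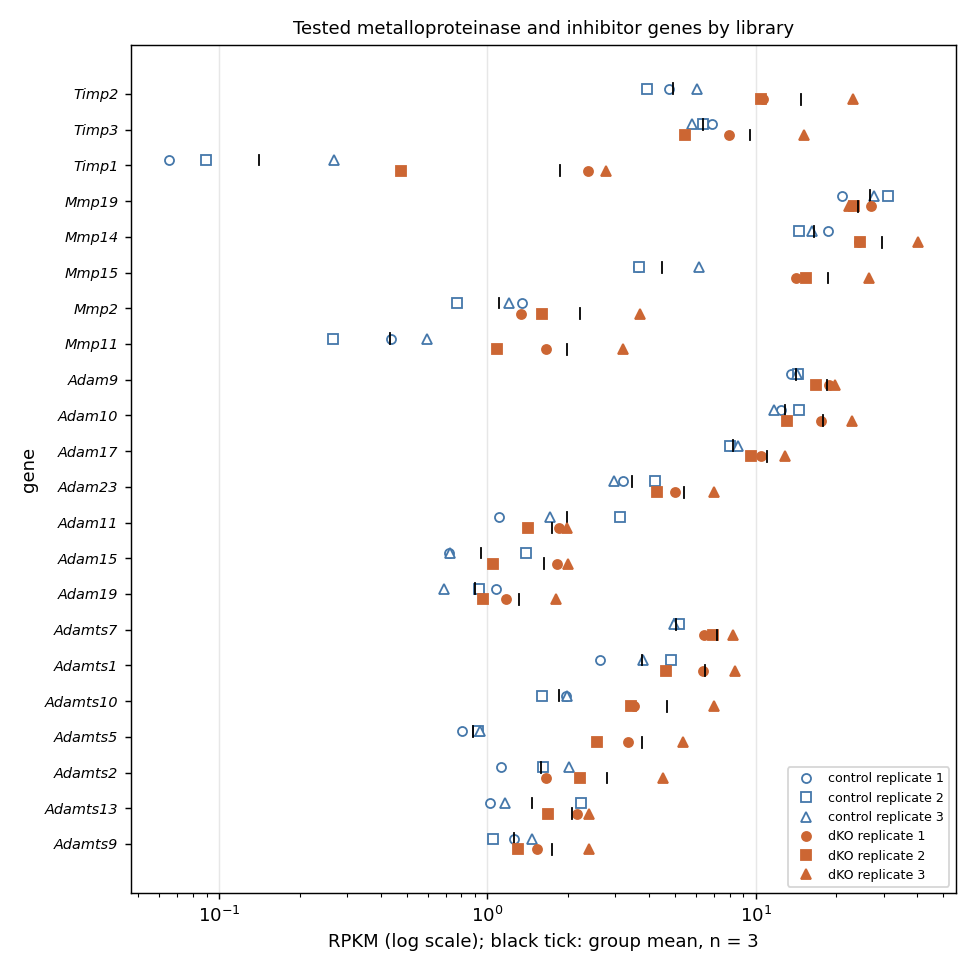
RPKM on a log axis for the 22 tested members, grouped as TIMP, MMP, ADAM and ADAMTS from top to bottom, with 1 point per library (open, control; filled, dKO) and a black tick at each group mean. Groups are separate at 11 of the 22 genes, Mmp15, Timp2, Adamts5 and Adamts10 among them, and dKO replicate 3 (filled triangle) is the highest point at 20 of the 22.

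Among the membrane-anchored MMPs, both tested genes rose. Mmp15 encodes MT2-MMP, a transmembrane proteinase that cuts matrix proteins at the cell surface. Its level was 3.64, 3.67 and 6.16 RPKM in the controls and 14.2, 15.4 and 26.5 RPKM in the dKO libraries, in the order of replicates 1, 2 and 3 that is kept below. All dKO libraries lay above all controls, and control replicate 3 was the highest control. Mmp15 rose 4.16-fold, from 4.49 ± 1.45 to 18.7 ± 6.79 RPKM (SD, n = 3), or by 1.82 ± 0.26 (SE) in log2 (limma adjusted p = 0.00499). It rose 3.29-fold without dKO replicate 3, and by 1.56 in log2 after median-ratio scaling (limma adjusted p = 0.00922).

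Mmp14 encodes MT1-MMP, a membrane collagenase that also activates the precursor of MMP2 in a complex with TIMP2. Its control libraries held 18.7, 14.5 and 16.3 RPKM and its dKO libraries 24.2, 24.6 and 40.3 RPKM. Control and dKO values were separate, and dKO replicates 1 and 2 were nearly equal while replicate 3 was well above them. Mmp14 rose 1.80-fold, or by 0.78 ± 0.20 (SE) in log2 (limma adjusted p = 0.0316). After median-ratio scaling the log2 change was 0.50 and the call was lost (limma adjusted p = 0.105), and it was also lost without any one of control replicates 1, 2 and 3 (up to 0.0853), without dKO replicate 3 (0.0515) and without a filter on low values (0.0671). The other membrane-type genes, Mmp16, Mmp17, Mmp24 and Mmp25, did not pass 0.459 RPKM in any library.

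The secreted MMPs differed from one another. Mmp19, which encodes a soluble MMP of basement membranes, was the most abundant member in control liver, at 21.0, 31.3 and 27.7 RPKM, and held 26.8, 23.2 and 22.3 RPKM in the dKO libraries. The groups overlapped, and the log2 change was -0.13 ± 0.16 (SE; limma adjusted p = 0.594), and after median-ratio scaling the change was -0.40 (limma adjusted p = 0.133). In control liver the mean of Mmp19 (26.7 ± 5.19 RPKM) exceeded that of Mmp14 (16.5 ± 2.06), while in dKO liver Mmp14 (29.7 ± 9.18) and Mmp19 (24.1 ± 2.38) lay within their spread. Mmp2, which encodes gelatinase A, measured 1.35, 0.772 and 1.21 RPKM in control and 1.34, 1.60 and 3.72 RPKM in dKO libraries (limma adjusted p = 0.17). Only dKO replicates 2 and 3 lay above all Mmp2 controls, the latter well above.

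Mmp11 encodes stromelysin 3, which is activated inside the cell by furin-like enzymes. It measured 0.436, 0.266 and 0.595 RPKM in control and 1.65, 1.09 and 3.21 RPKM in dKO libraries. The groups were separate, and Mmp11 rose 4.58-fold, or by 1.00 ± 0.26 (SE) in log2 of RPKM + 1 (limma adjusted p = 0.0306). With a control mean below 1 RPKM it was tested only through its dKO values, so this call is no support for a direction. The call was lost when control replicate 1, 2 or 3 or dKO replicate 1 was left out (limma adjusted p of 0.0579 to 0.0879) and without a filter (0.0599). Without dKO replicate 3 its mean fell below 1 RPKM and it was not tested. Exons of Mmp11 overlap those of Chchd10 on the opposite strand in GENCODE, and the library protocol describes no step that marks strand, so their reads there cannot be told apart. Chchd10 measured 198, 112 and 169 RPKM in control and 91.2, 117 and 69.7 RPKM in dKO libraries, lower on average where Mmp11 was higher. Gelatinase B, encoded by Mmp9, stayed below the test's minimum at 0.276 to 0.367 RPKM in control and 0.523 to 1.35 RPKM in dKO libraries.

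Of the 4 inhibitor genes, Timp2 and Timp1 were called higher, Timp3 did not pass the test and Timp4 was detected in 1 library, at 0.0331 RPKM. Timp2 encodes the inhibitor that links MT1-MMP to the MMP2 precursor. It measured 4.74, 3.94 and 6.02 RPKM in control and 10.7, 10.5 and 23.1 RPKM in dKO libraries. Control and dKO values were separate, and dKO replicate 3 held more than either other dKO library by a wide margin. Timp2 rose 3.01-fold, and 2.16-fold without dKO replicate 3, and its log2 change was 1.34 ± 0.29 (SE; limma adjusted p = 0.0204). Of 14 alternatives, 1 ended the call, that without control replicate 1 (limma adjusted p = 0.0766), and after median-ratio scaling the log2 change was 1.08 (0.0346).

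Timp1 encodes a soluble inhibitor that is known to be induced in injured liver. It was at 0.0649, 0.0895 and 0.269 RPKM in control libraries, which is few reads at these depths, and at 2.37, 0.475 and 2.77 RPKM in dKO libraries. All dKO values exceeded all controls, but dKO replicate 2 lay far below the other dKO libraries. Timp1 rose by 1.22 ± 0.34 (SE) in log2 of RPKM + 1 (limma adjusted p = 0.0374), and no fold is given against a control level of so few reads. Timp1 was tested only through its dKO values, so this call is no support for a direction. The call was lost without any one of the control replicates (limma adjusted p of 0.072 to 0.117) and without a filter (0.0723). Without dKO replicate 1 or 3, after median-ratio scaling and with the 3-library minimum Timp1 fell below the minimum level and was not tested. Timp3 encodes a matrix-bound inhibitor that also blocks ADAM17. It measured 6.90, 6.35 and 5.80 RPKM in control and 7.93, 5.47 and 15.2 RPKM in dKO libraries, so that 1 dKO library was below all controls and 1 far above them (limma adjusted p = 0.338). Exons of Timp3 overlap those of Syn3 on the opposite strand, and Syn3 reached at most 1.18 RPKM.

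**Figure D2:**
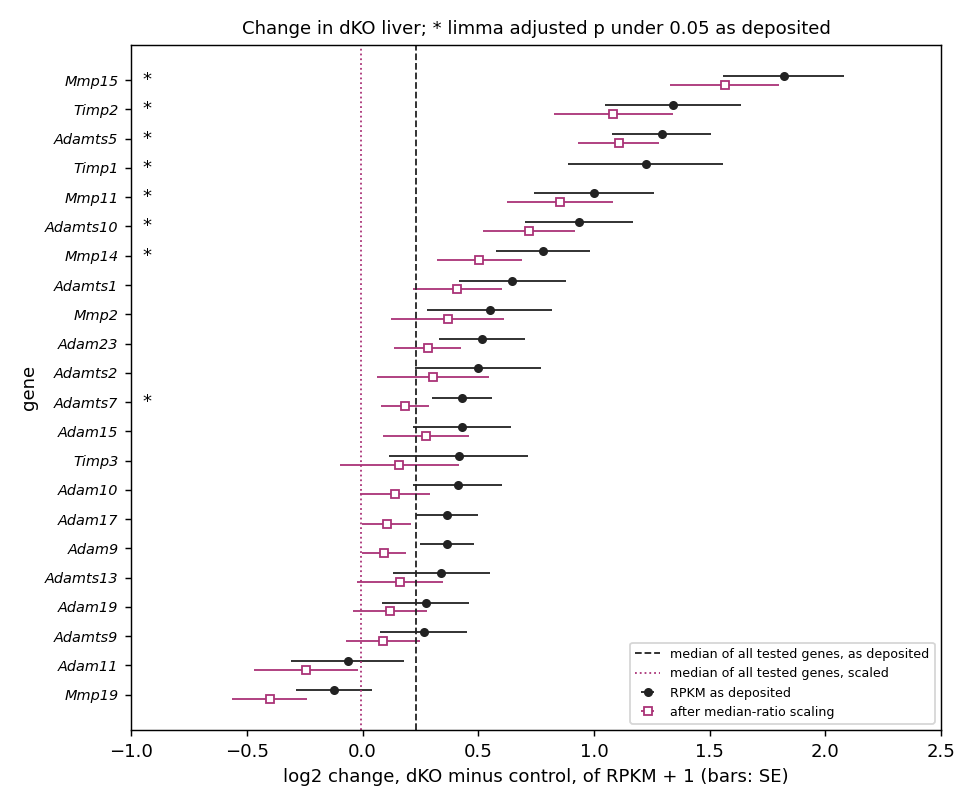
Log2 change (dKO minus control, of RPKM + 1) with its SE for the 22 tested members, from RPKM as deposited (filled circles) and after median-ratio scaling (open squares, 21 members), beside the medians of all tested genes (vertical lines at 0.23 and -0.01). Mmp15, Timp2 and Adamts5 lie farthest from those medians under both scalings, and Mmp19 and Adam11 lie below 0 under both.

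None of the ADAM genes passed the test, although the most abundant ones lay slightly higher in dKO libraries. With sample weights Adam9, Adam10, Adam15, Adam17 and Adam23 were called higher, where 37.4% of all genes were. Adam10 was also called without dKO replicate 2, where 14.1% of all genes were. Adam9 encodes a widely expressed sheddase. It measured 13.6, 14.4 and 14.3 RPKM in control and 18.7, 16.8 and 19.8 RPKM in dKO libraries. The groups were separate and the control values close together, the log2 change was 0.36 ± 0.12 (SE; limma adjusted p = 0.0562), and after median-ratio scaling the change was 0.09. Adam17, which encodes the enzyme that releases tumour necrosis factor and several ligands of the epidermal growth factor receptor, measured 8.11, 8.05 and 8.60 RPKM in control and 10.5, 9.60 and 12.9 RPKM in dKO libraries. Its groups were also separate (log2 change 0.36 ± 0.13 SE, limma adjusted p = 0.0848), but they overlapped after scaling, and Adam17 exons overlap those of Iah1 (up to 80.2 RPKM) on the opposite strand. Adam10, the sheddase that opens Notch receptors to further cleavage, held 12.4, 14.5 and 11.7 RPKM in control and 17.6, 13.1 and 22.9 RPKM in dKO libraries. These overlapped, with dKO replicate 2 below control replicate 2 (limma adjusted p = 0.152).

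The remaining tested ADAM genes were lower in level. Adam23, whose product lacks an active zinc site and serves in cell adhesion, measured 3.20, 4.21 and 2.96 RPKM in control and 4.99, 4.28 and 6.99 RPKM in dKO libraries. Its groups were separate by a small margin (limma adjusted p = 0.081) and overlapped after scaling. Adam11, a relative that also lacks the active site, had its highest value, 3.12 RPKM, in control replicate 2 and lay between 1.10 and 1.98 RPKM in all other libraries. Adam15 (0.720 to 1.39 and 1.05 to 2.00 RPKM) and Adam19 (0.688 to 1.07 and 0.962 to 1.80 RPKM) overlapped between the groups. Of the 32 ADAM genes, 25 did not pass 1 RPKM in any library, among them Adam8, Adam12, Adam28 and Adam33.

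In the ADAMTS family, Adamts5, Adamts10 and Adamts7 rose. Adamts5 encodes an aggrecanase, an enzyme that cuts the proteoglycans aggrecan and versican. It measured 0.804, 0.923 and 0.937 RPKM in control and 3.34, 2.57 and 5.37 RPKM in dKO libraries. The controls were tightly grouped and every dKO library was well above them. Adamts5 rose 4.24-fold, and 3.33-fold without dKO replicate 3, and its log2 change was 1.29 ± 0.21 (SE; limma adjusted p = 0.00718). With a control mean of 0.888 RPKM it passed the filter only through dKO, and without a filter the limma adjusted p was 0.0245. The other tested aggrecanase genes did not pass: Adamts1 held 2.63, 4.85 and 3.79 RPKM in control and 6.39, 4.63 and 8.41 RPKM in dKO libraries (limma adjusted p = 0.0783), and Adamts9 stood at 1.05 to 1.47 and 1.31 to 2.39 RPKM. Adamts1 was called higher with sample weights and without control replicate 2 or dKO replicate 2, where 37.4%, 17.9% and 14.1% of all genes were. Adamts1 and Adamts5 are neighbouring genes, and the ratio of Adamts5 to Adamts1 within a library, which no scaling changes, was 0.305, 0.190 and 0.247 in control and 0.523, 0.555 and 0.638 in dKO libraries.

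Adamts10 encodes an enzyme that binds fibrillin microfibrils. It measured 1.96, 1.61 and 1.99 RPKM in control and 3.53, 3.43 and 7.02 RPKM in dKO libraries. The groups were separate, with dKO replicate 3 at about the sum of the others, and the gene rose 2.52-fold (1.88-fold without that library). Its log2 change was 0.94 ± 0.23 (SE; limma adjusted p = 0.0272), and the call was lost after median-ratio scaling (0.0524), without a filter (0.0593) and without any one of the control replicates (up to 0.0765). Adamts7, which encodes an enzyme that degrades cartilage oligomeric matrix protein, measured 5.05, 5.17 and 4.97 RPKM in control and 6.45, 6.94 and 8.23 RPKM in dKO libraries. The spread within controls was small, and the gene rose 1.42-fold with a limma adjusted p of 0.0472. Of 14 alternatives 10 ended this call, including median-ratio scaling (limma adjusted p = 0.255) and each library left out in turn (0.0693 to 0.132). Adamts7 exons overlap those of Tbc1d2b (7.56 to 12.6 RPKM over all libraries) on the opposite strand.

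Adamts2, which encodes the main peptidase that trims the amino end of fibrillar procollagen, measured 1.13, 1.62 and 2.02 RPKM in control and 1.66, 2.22 and 4.51 RPKM in dKO libraries. The groups overlapped (limma adjusted p = 0.209), and the mean without dKO replicate 3 was 1.22-fold that of the controls. Adamts13, which encodes the stellate cell enzyme that cuts von Willebrand factor, measured 1.02, 2.23 and 1.17 RPKM in control and 2.16, 1.68 and 2.39 RPKM in dKO libraries (limma adjusted p = 0.261). Control replicate 2 lay among the dKO values of Adamts13.

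**Figure D3:**
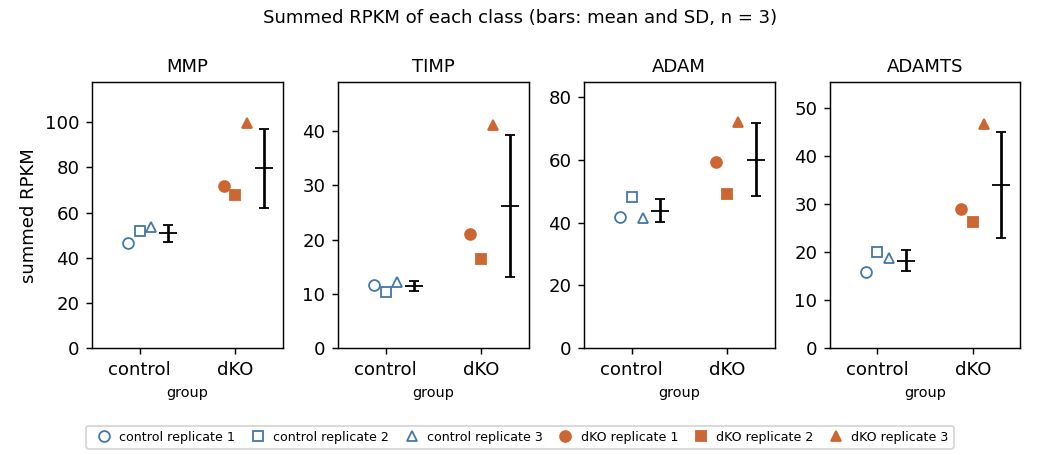
Summed RPKM of all genes of each class in each library (open, control; filled, dKO; bars, mean and SD of 3 libraries), on linear axes from 0. The MMP, TIMP, ADAMTS and ADAM sums are higher in every dKO library than in every control. For ADAM the margin is narrow (49.0 RPKM in dKO replicate 2, 48.1 RPKM in control replicate 2). dKO replicate 3 is the highest in each class.

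Summed over each class, the inhibitors differed most in proportion. MMP genes together held 46.6, 51.9 and 53.7 RPKM in control and 71.5, 67.7 and 99.6 RPKM in dKO libraries. TIMP genes held 11.7, 10.4 and 12.1 RPKM in control and 21.0, 16.5 and 41.1 RPKM in dKO libraries. ADAMTS genes held 15.7, 19.99 and 18.7 RPKM in control and 28.8, 26.2 and 46.5 RPKM in dKO libraries, and ADAM genes 41.9, 48.1 and 41.6 and 59.3, 49.0 and 72.1 RPKM. The ratios of the dKO to the control mean were 2.30 for TIMP, 1.87 for ADAMTS, 1.57 for MMP and 1.37 for ADAM genes. They were 1.64, 1.52, 1.37 and 1.24 without dKO replicate 3, and 1.83, 1.51, 1.27 and 1.12 after median-ratio scaling, where the ADAM sums overlapped. The sum of TIMP divided by that of MMP, which no scaling changes, was 0.251, 0.200 and 0.225 in control and 0.293, 0.243 and 0.412 in dKO libraries, and these ranges overlapped. These sums were not tested, because the members were chosen with earlier results of these data known. Mmp14 and Mmp19 supplied 81.9% to 88.3% of the MMP sum of the controls, and 62.8% to 71.3% of that of the dKO libraries.

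Of the 40 members that were above 0 somewhere but not tested, 10 had all dKO libraries above all controls and 0 the reverse, against 19.3% and 1.86% of all such genes. Adamts6, an ADAMTS gene of little-known function, measured 0.251, 0.693 and 0.386 RPKM in control and 1.05, 1.12 and 1.42 RPKM in dKO libraries. Adamts12, which like Adamts7 encodes an enzyme of cartilage oligomeric matrix protein, held 0.278 to 0.414 and 0.521 to 1.61 RPKM. Adamts16 was at 0, 0.032 and 0.144 RPKM in control and 0.331, 0.179 and 1.06 RPKM in dKO libraries. The 6 members that passed 1 RPKM in some library but not in the mean were these 3, Mmp9, Adamts4 (0.408 to 0.572 and 0.562 to 1.95 RPKM) and Adamts15 (0.209 to 0.302 and 0.293 to 1.13 RPKM). Each of the 6 was highest in dKO replicate 3. When all genes above 0 were tested, 3 of 62 members were called higher (Mmp15, Adamts5 and Timp2), or 4.84%, which is below the 8.48% of all genes, and none of the scarce members was among them.

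**Figure D4:**
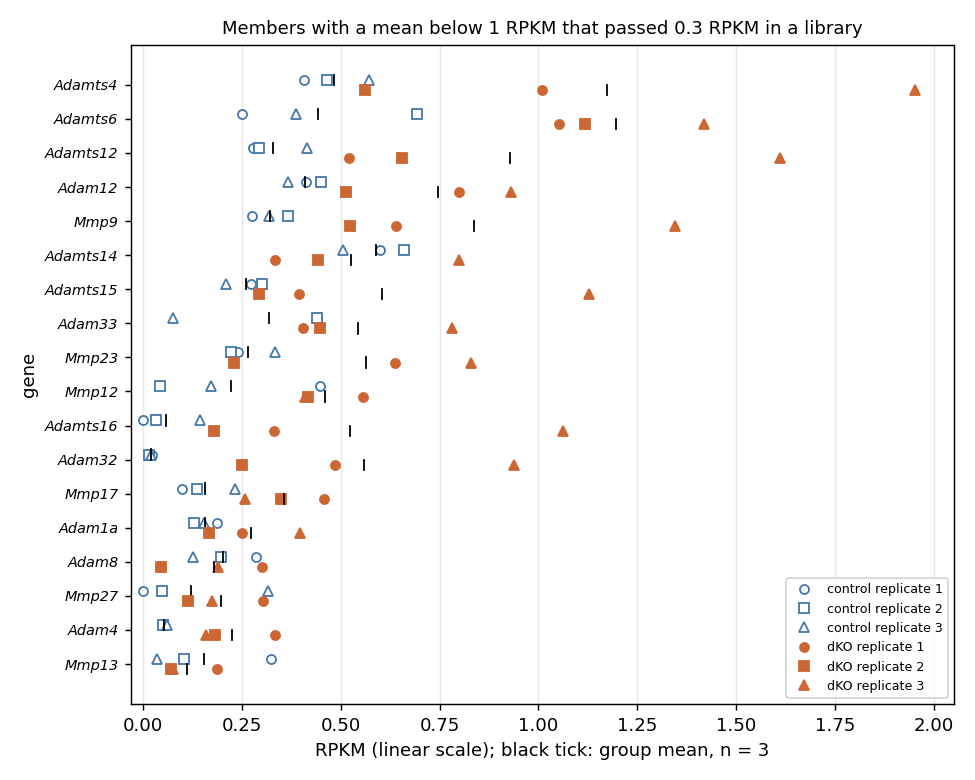
RPKM on a linear axis for the 18 members with a mean below 1 RPKM that passed 0.3 RPKM in some library (open, control; filled, dKO; black tick, group mean). Adamts6, Adamts12, Adam12, Mmp9, Adam32, Adamts16, Mmp17 and Adam4 show separate groups, some by a small margin. dKO replicate 3 (filled triangle) lies far to the right at Adamts4, Adamts12, Mmp9 and Adamts16.

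Promoter sequence was available in the RefSeq table (GRCm38.p6) for 15 of the 22 tested members, and 5 of the promoters belonged to members called higher. The 250 bases before the start were searched on both strands for CATTCC, the core of the site of TEAD factors, through which YAP acts, for CCGCCC, a GC box of SP factors, and for TGANTCA, the AP-1 site. CATTCC was found in 1 of these 5 promoters (that of Timp1) and in 12.6% of all 32851 promoters in the table. CCGCCC was found in all 5 promoters, in 12 of the 17 promoters of tested members, in 32.7% of all promoters and in 57.0% of the 10124 promoters of tested genes. TGANTCA was found in 0 of the 5 and in 6.75% of all promoters. A match describes letters and not a bound site. The promoters of Mmp15, Mmp14, Mmp11 and Timp1 are shown because these genes were called higher, though Mmp11 and Timp1 were tested only through their dKO values. They run 5′ to 3′ on the gene's strand, cut at the start or at the first annotated exon. Matches to CATTCC or CCGCCC (either strand) are in capitals.
Mmp15 (chr8:95352046-95352267, plus strand): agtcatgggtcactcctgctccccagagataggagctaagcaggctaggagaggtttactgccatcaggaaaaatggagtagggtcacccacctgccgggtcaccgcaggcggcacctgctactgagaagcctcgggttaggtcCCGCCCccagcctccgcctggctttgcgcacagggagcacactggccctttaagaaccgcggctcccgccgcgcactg
Mmp14 (chr14:54431348-54431597, plus strand): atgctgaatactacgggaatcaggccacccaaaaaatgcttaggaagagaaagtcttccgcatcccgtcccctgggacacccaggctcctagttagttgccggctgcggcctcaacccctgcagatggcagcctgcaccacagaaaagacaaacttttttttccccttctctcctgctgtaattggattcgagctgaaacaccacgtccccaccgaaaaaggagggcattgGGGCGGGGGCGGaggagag
Mmp11 (chr10:75932503-75932752, minus strand): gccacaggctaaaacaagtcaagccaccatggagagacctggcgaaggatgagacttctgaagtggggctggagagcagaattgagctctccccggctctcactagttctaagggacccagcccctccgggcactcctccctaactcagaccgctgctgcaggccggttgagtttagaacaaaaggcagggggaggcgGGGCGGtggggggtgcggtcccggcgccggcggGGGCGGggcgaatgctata
Timp1 (chrX:20869916-20870165, plus strand): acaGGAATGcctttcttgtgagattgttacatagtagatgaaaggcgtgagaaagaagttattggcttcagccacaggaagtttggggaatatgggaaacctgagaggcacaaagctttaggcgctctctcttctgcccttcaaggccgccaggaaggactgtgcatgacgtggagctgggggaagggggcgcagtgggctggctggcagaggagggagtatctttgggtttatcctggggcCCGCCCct
Mmp15 carries 1 GC box match and Mmp14 carries 2 side by side near the start. Mmp11 also carries 2, and Timp1 has a GC box match close to the start and its CATTCC match, written GGAATG, at the far end. The 250 bases hold 14, 10, 14 and 6 CG pairs in Mmp15, Mmp14, Mmp11 and Timp1, against a median of 6 over all promoters.

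Genes that act with these enzymes were read from lists chosen with earlier results known. Among 9 regulators of ADAM10 and ADAM17, 7 were tested, 3 rose and 0 fell, beside 17.8% of all tested genes called higher and 2.17% called lower. Rhbdf1, which encodes iRhom1, a carrier of ADAM17 to the cell surface, measured 1.35, 1.23 and 1.97 RPKM in control and 5.30, 5.33 and 9.01 RPKM in dKO libraries (limma adjusted p = 0.00335, called under all 14 alternatives). Its relative Rhbdf2 went from 4.58 ± 0.757 to 7.15 ± 1.20 RPKM (limma adjusted p = 0.045, lost under 9 alternatives), and Tspan17, a tetraspanin of ADAM10, from 0.614 ± 0.243 to 2.06 ± 0.727 RPKM (0.0227). Tspan17 had a control mean below 1 RPKM and was tested only through its dKO values. Of the 6 tested genes above that level 2 rose, against 16.3% of all such genes. After median-ratio scaling 2 of the 3 rose, beside 7.86% of all genes. Without control replicate 1, dKO replicate 1 or dKO replicate 3, 1 rose (6.84%, 10.5% and 9.1% of all genes). Without control replicate 3 or dKO replicate 2, 2 rose (8.59% and 14.1% of all genes).

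Of 16 proteins known to be shed by ADAM10 or ADAM17, 13 were tested, 7 rose and 0 fell, beside 17.8% of all tested genes called higher and 2.17% called lower. Betacellulin, a ligand of the epidermal growth factor receptor encoded by Btc, went from 0.693 ± 0.275 to 3.26 ± 0.697 RPKM (limma adjusted p = 0.00382). E-cadherin, the epithelial adhesion protein encoded by Cdh1, went from 21.2 ± 2.38 to 54.4 ± 15.7 RPKM (limma adjusted p = 0.00564), and the Notch ligand gene Jag1 also rose (0.0101). After median-ratio scaling 4 rose and 1 fell (Mertk, an engulfment receptor gene), against 7.86% of all genes higher and 5.57% lower. Without control replicate 1 or 3, 4 rose, against 6.84% and 8.59% of all genes. Without control replicate 2 or dKO replicate 1, 6 rose (17.9% and 10.5% of all genes). Without dKO replicate 2 or 3, 5 rose (14.1% and 9.1% of all genes). Btc was tested only through its dKO values, and of the 11 genes with a control mean of at least 1 RPKM 6 rose, against 16.3% of all such genes.

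The remaining lists held few calls, beside 17.8% of all tested genes called higher. Of 8 tested substrates of collagenases and procollagen peptidases, 1 rose, the basement membrane collagen gene Col4a1 (14.7 ± 1.09 to 30.5 ± 13.04 RPKM, limma adjusted p = 0.0413). That call was lost without a filter (limma adjusted p = 0.0782) and after median-ratio scaling. It was also lost when control replicate 1, 2 or 3 or dKO replicate 1 was left out (up to 0.127). Without dKO replicate 2, 3 genes of this list rose. Col1a1, a fibrillar collagen gene, measured 1.77, 3.14 and 3.41 RPKM in control and 6.45, 4.87 and 17.6 RPKM in dKO libraries (limma adjusted p = 0.0699). The list of other secreted metzincins had 1 tested member, Bmp1, the enzyme that trims the carboxyl end of procollagen, which rose from 19.4 ± 2.56 to 29.1 ± 4.42 RPKM (limma adjusted p = 0.0378) and lost its call under 10 alternatives. Of 2 tested ADAMTS-like genes, Adamtsl2, which encodes a microfibril protein without proteinase activity, rose from 0.427, 0.491 and 0.839 RPKM to 2.23, 3.30 and 9.64 RPKM (limma adjusted p = 0.0266). This call was lost without any one of the control replicates (up to 0.0953) and without a filter (0.0509). Like Btc, Adamtsl2 was tested only through its dKO values, but the call of Btc held without a filter (limma adjusted p = 0.0156). Among 4 convertases, 3 tested genes of plasminogen activation and 5 other inhibitors, 0 rose and 0 fell. Furin, which activates many of these precursors, stood at 49.0 to 51.0 and 42.6 to 46.7 RPKM.

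**Figure D5:**
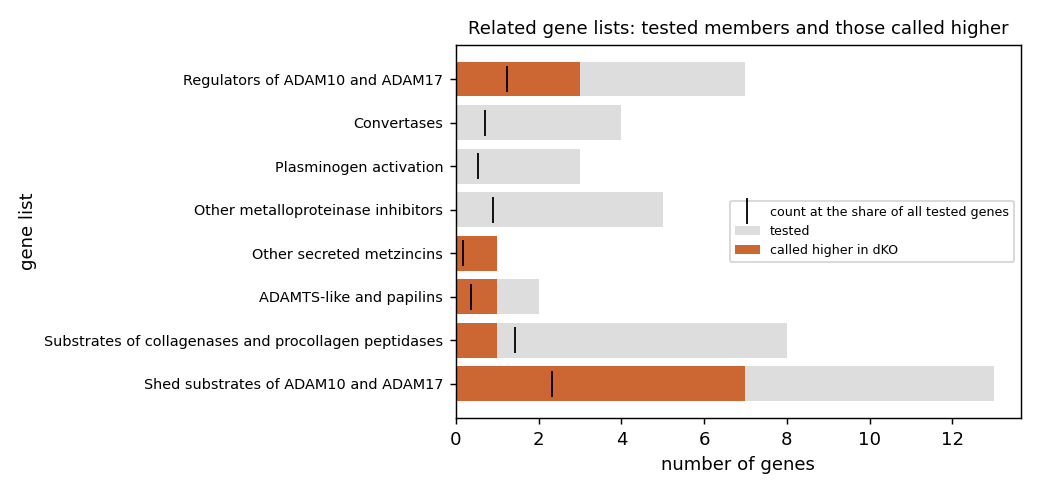
Number of tested genes (grey) and of genes called higher in dKO (orange) in 8 lists of related genes, with a mark at the count that the 17.8% share of all tested genes would give. The shed substrates (7 of 13) and the regulators of ADAM10 and ADAM17 (3 of 7) lie above that mark, and the convertases, plasminogen and other inhibitor lists have no call. Tspan17, Btc and Adamtsl2 among the called genes had control means below 1 RPKM.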

How the data were processed

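Polyadenylated liver RNA was sequenced in 3 control and 3 dKO libraries, and the 6 deposited tables, one per library, were used. The authors deposited 1 RPKM value per symbol. The build was mm9, as the submitters' processing notes have it, while which aligner, counter or gene models produced them is not given in the sources used here. RPKM as the unit of the deposited values was inferred: among 3973 symbols with a single GENCODE transcript, 76.9% to 81.8% of the low values lay within 0.15 of a whole read at the best-fitting depth, where evenly spread values give 30.0%. The depth was chosen to fit these values, so the unit was not tested. In addition 448 deposited values lay above 0 but below 1e-06, Mmp24 in the controls among them, and so are not whole reads.

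Values were taken as log2(RPKM + 1), the 11062 symbols whose mean reached 1 RPKM entered the fit, and limma (3.58.1, under R 4.3.3) used its trend and robust options on all 6 libraries without a block. P-values were adjusted by Benjamini-Hochberg over all tested symbols, with a threshold of 0.05. Counts restricted to genes with a control mean of at least 1 RPKM were added after the data were seen. Changes on this scale understate those of low genes. Members, lists and the rule for naming genes (all tested members, and up to 3 called genes per related list) were chosen with earlier results of these data known. The alternatives tried were no filter, a pseudocount of 0.1, a replicate block, 1 RPKM in 3 libraries, median-ratio scaling, no robust moderation, the sum without the 20 most abundant symbols, sample weights and each library left out. Promoters, neighbouring genes and exon overlaps came from RefSeq and GENCODE M21 on GRCm38. Figures used Python 3.11.15 with matplotlib 3.10.9.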

Additional observations from a re-analysis of the deposited data

How the results depend on the processing

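The 8 members called higher became 3 without a filter, 4 after median-ratio scaling and 15 with sample weights, and 2 to 9 with 1 library left out. The 1965 genes called higher in all became 866 after median-ratio scaling and 4133 with sample weights, and 763 to 1992 with 1 library left out. The 240 called lower became 145 without a filter, 613 after median-ratio scaling, 601 with sample weights and 90 to 241 with 1 library left out. The cause of these shifts was not tested. The sample weights gave dKO replicate 1 a weight of 5.33 and dKO replicate 3 a weight of 0.311. No member was called lower under any of the 14 alternatives. Of 302 member values under alternatives, 258 kept direction and side of the threshold, 31 lost a call, 10 gained one and 3 changed sign. The last were all of Adam11, whose log2 change was 0.028 with sample weights and ranged from -0.29 to 0.20 with 1 library left out, above 0 when that was control replicate 2 (0.20) or dKO replicate 2 (0.025). The other pseudocount, the 3-library minimum, no robust moderation and the sum without the 20 most abundant symbols gave 7 or 8 members. Under the 3-library minimum Adamts6 (limma adjusted p = 0.0381) stood in place of Timp1, which was not tested. Adamts6 met that minimum only through its dKO values, so this call is no support for a direction. Without a filter its limma adjusted p was 0.0518.

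With the replicate number as a block, 7 members were called higher, with 1513 genes higher and 202 lower in all, and Adamts7 was the member whose call was lost (limma adjusted p = 0.095). Across genes, deviations of same-numbered libraries correlated at -0.08, -0.10 and -0.01, and the highest correlation of any control with any dKO library was 0.10. These correlations span all genes, with deviations taken within groups of 3, so they cannot settle whether the numbers pair the libraries. With the block the SE went from 0.26 to 0.15 at Mmp15 and from 0.29 to 0.18 at Timp2. It went from 0.12 to 0.15 at Adam9 and from 0.13 to 0.16 at Adamts7. At 16.9 to 24.5 reads per RPKM and kb, members below about 0.1 RPKM rest on few reads, so their values are imprecise.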

Other observations

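Ratios of 2 members within a library do not depend on how libraries are scaled, and these pairs were chosen after their values were seen. Mmp15 over Mmp14, the 2 abundant membrane-type genes, was 0.195, 0.252 and 0.379 in control and 0.586, 0.624 and 0.657 in dKO libraries, so the groups did not overlap. Timp2 over Timp3 was 0.688, 0.621 and 1.04 in control and 1.34, 1.92 and 1.52 in dKO libraries. Timp2 over Mmp14, genes of 1 activation complex, was 0.254, 0.271 and 0.371 in control and 0.441, 0.427 and 0.574 in dKO libraries. By contrast Adam10 over Adam17 was 1.53, 1.80 and 1.37 in control and 1.68, 1.36 and 1.77 in dKO libraries, and these overlapped. dKO replicate 3 did not stand far from the other dKO libraries in the ratio of Mmp15 to Mmp14, although it held the highest level of both genes.

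Adam32, a gene known from testis, measured 0.0236, 0.0163 and 0.0195 RPKM in control and 0.486, 0.249 and 0.938 RPKM in dKO libraries, with a limma adjusted p of 0.0567 when all genes above 0 were tested. Adam18, Adam3, Adam5, Adam32 and Adam9 stand side by side on chromosome 8 in RefSeq, and Adam18, Adam3 and Adam5 reached at most 0.147 RPKM in any library. Adam4, also known from testis, was at 0.0495 to 0.0615 RPKM in control and 0.158 to 0.334 RPKM in dKO libraries. Mmp24 was at 0.0671 to 0.0761 RPKM in dKO libraries and below 1e-06 RPKM in every control, and its exons overlap those of BC029722 on the opposite strand.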
